A study of Mus musculus with 36 samples.

Results

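The genes followed here are 6 matrix metalloproteinases (Mmp12, Mmp9, Mmp8, Mmp2, Mmp14 and Mmp19), 3 tissue inhibitors of metalloproteinases (Timp1, Timp2 and Timp3) and 1 ADAM protease (Adam9). They were chosen by gene symbol, as rows listed in both the female and the male count table, and make up 10 of the 17716 names that both tables hold. All 10 were found in both tables. The other 9 passed edgeR's filter on low counts in every comparison, while Adam9 was left out within male mice, in 9527+oil against saline within female mice, and in 9500+oil or 9527+oil against oil and 9527+oil against 9500+oil.

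The study asked how fractions of MC252 crude oil, of the dispersants Corexit 9500 and Corexit 9527, and of either dispersant mixed with oil act on lung tissue. Wild-type C57BL/6 mice were 8 weeks old at the start and received 50 µL of a 0.1 saline-accommodated fraction (SAF; the labels write WAF) on days 0, 7 and 13, and the left lung was taken on day 14. The labels call the route intratracheal instillation and the study's methods call it oropharyngeal aspiration. The 6 groups were saline (the vehicle control), oil, Corexit 9500 (9500), Corexit 9527 (9527), 9500+oil and 9527+oil, each with 3 female and 3 male mice, so that 36 libraries were read. Female and male mice were treated separately, and their counts come in separate tables. All mice shared the strain and carried no transgene, and each library came from a whole left lung with all its cell types. In such bulk samples fewer cells of a type and less RNA per cell cannot be told apart.

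Matrix metalloproteinases are zinc proteases that cut collagens, elastin and other proteins of the extracellular matrix, and most are made as inactive precursors. TIMPs bind the active enzymes and block them, so that the balance of protease and inhibitor sets how fast matrix is turned over. In the lung MMP12 is known as the elastase of macrophages, MMP8 and MMP9 are stored in neutrophil granules, and MMP2 and MMP14 are made mainly by mesenchymal cells.

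The upstream sequences of Mmp12 and Timp1 are shown because these are the genes called in the comparisons described below. RefSeq promoter windows on GRCm38.p6 were on hand for 6 of the 10 genes (Mmp12, Mmp14, Mmp8, Timp1, Timp2 and Timp3). Each line gives 250 bases upstream of a start site, 5′ to 3′ on the coding strand, and Mmp12 has a pair of start sites in RefSeq. Capitals mark matches to the PEA3 motif (AGGAAG on either strand) or to the AP-1 motif (TGANTCA), both of which are known from metalloproteinase promoters.
Mmp12, upstream start (chr9:7344147-7344396, plus strand): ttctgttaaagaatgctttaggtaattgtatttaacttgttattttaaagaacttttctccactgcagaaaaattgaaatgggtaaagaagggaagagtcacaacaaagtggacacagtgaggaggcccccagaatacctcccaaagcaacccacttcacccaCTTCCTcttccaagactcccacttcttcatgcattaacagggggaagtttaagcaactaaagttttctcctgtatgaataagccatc
Mmp12, downstream start (chr9:7347124-7347373, plus strand, where GENCODE M21 has no exon): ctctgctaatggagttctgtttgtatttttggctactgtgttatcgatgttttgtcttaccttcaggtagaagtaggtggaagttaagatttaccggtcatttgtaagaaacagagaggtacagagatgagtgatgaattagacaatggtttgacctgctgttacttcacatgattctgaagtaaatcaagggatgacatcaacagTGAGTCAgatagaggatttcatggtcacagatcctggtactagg
Timp1 (chrX:20869916-20870165, plus strand): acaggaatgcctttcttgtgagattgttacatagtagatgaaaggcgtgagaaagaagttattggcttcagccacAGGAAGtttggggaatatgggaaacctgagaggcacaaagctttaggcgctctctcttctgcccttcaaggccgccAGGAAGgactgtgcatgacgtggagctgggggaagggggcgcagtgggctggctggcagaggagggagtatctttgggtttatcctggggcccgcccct
The upstream Mmp12 window held 1 PEA3 match, whose first base lies at -87 from the start site, and the downstream window held 1 AP-1 match at -44. The Timp1 window held PEA3 matches at -175 and -99 and no AP-1 match. Across 32851 RefSeq promoters, 29.5% held AGGAAG, 6.75% held TGANTCA and 12.4% held the TATA box letters TATAAA, which were in none of these 3 windows. Of the other windows, those of Mmp14, Mmp8 and Timp3 held 1 PEA3 match each (at -209, -220 and -204), and that of Timp2 held none. A match gives letters only and was not tested as a binding site.

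Total counts ran from 17501180 to 30011557 per library. The labelled tissue was read from marker lists: 12 of 12 listed epithelial and 7 of 7 endothelial markers were in both tables, with summed levels of 16297 to 45897 and 2152 to 5222 CPM (counts scaled to a common library size with edgeR's TMM factors). A set of 4 female libraries stood apart, with 20.7 to 45.1% of their counts on 13 mitochondrial genes against 6.16 to 11.3% in the other 14 female and 5.27 to 7.68% in the 18 male libraries. They are saline mouse 3, oil mouse 6, Corexit 9527 mouse 11 and 9500+oil mouse 14. Results were therefore also computed without these 4 libraries. Since Corexit 9500 and 9527+oil hold no such library, their female comparisons set whole groups against groups that include 1.

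Mmp12, the macrophage elastase (ENSMUSG00000049723, chromosome 9, 7344381 to 7369499 on GRCm38), was upregulated with Corexit 9527 when both sexes were tested together. In female mice it stood at 8.36, 11.3 and 7.27 CPM with saline and at 82.2, 72.5 and 38.6 CPM with Corexit 9527. In male mice it stood at 6.46, 7.35 and 7.95 CPM with saline and at 25.3, 61.2 and 26.6 CPM with Corexit 9527. Every Corexit 9527 mouse was thus above every saline mouse of its sex, as held for 0.933% of 15328 genes tested. Over both sexes the fitted level was 6.08-fold higher (95% interval 3.91 to 9.44), or 2.60 on the log2 scale, and passed edgeR's quasi-likelihood test after Benjamini-Hochberg adjustment (adjusted p = 0.0121). It was the 1 of the 10 genes called in this comparison, in which 0.0326% of the genes tested were called by edgeR (5 genes, all higher). That count depended on the method, with 127 genes (0.829%, 116 higher and 11 lower) called by DESeq2, 796 (5.19%, 535 higher and 261 lower) by voom, and 331 (2.13%, 269 higher and 62 lower) by edgeR without the 4 libraries. Leaving out the 4 libraries gave a log2 fold change of 2.48 (edgeR adjusted p = 0.00339).

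The call rested on small margins. Leaving out 1 mouse kept the log2 fold change between 2.41 and 2.72, but 5 of the 12 fits missed the threshold, each without a saline mouse (edgeR adjusted p = 0.0765 and 0.0580 without female saline mouse 1 or 2, and 0.0748, 0.0634 and 0.0538 without male saline mouse 1, 2 or 3). Within female mice alone the log2 fold change was 2.84 and the adjusted p was 1.00 by edgeR (unadjusted p = 0.000539), while DESeq2 gave an adjusted p of 6.75e-05. Within male mice it was 2.38 with an adjusted p of 0.0558 by edgeR and 2.68e-11 by DESeq2. The log2 change in male minus that in female mice was -0.47 (95% interval -1.70 to 0.77).

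**Figure D1:**
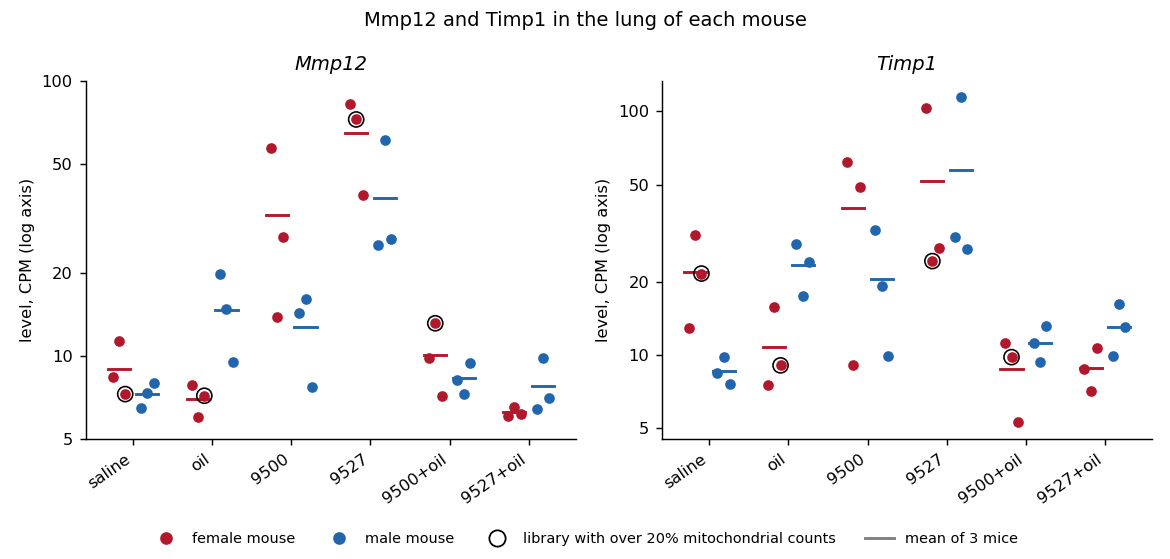
Level of Mmp12 and Timp1 in CPM (log axis) in each of the 36 mice, by treatment, with female mice in red, male mice in blue, bars at the mean of 3 mice and rings on the 4 libraries with over 20% mitochondrial counts. The Corexit 9527 mice lie above the saline mice of their sex for Mmp12, and the 9527+oil mice lie below the Corexit 9527 mice for both genes.

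With oil added to Corexit 9527, Mmp12 was downregulated against Corexit 9527 alone. The 9527+oil mice had 6.05, 6.50 and 6.14 CPM in females and 6.44, 9.79 and 7.00 CPM in males, with no overlap with the Corexit 9527 mice of either sex. This difference was -2.82 ± 0.32 on the log2 scale (standard error; edgeR adjusted p = 0.0123), and 3.37% of genes lay lower without overlap in both sexes. Mmp12 was 1 of 2 of the 10 genes called in this comparison, where 0.559% of 15396 genes were called (7 higher and 79 lower). Leaving out 1 mouse kept the value between -2.98 and -2.67, and 3 of 12 fits missed the threshold (edgeR adjusted p = 0.0705 and 0.0577 without female 9527+oil mouse 16 or 18, and 0.0592 without male 9527+oil mouse 16). Against saline, 9527+oil gave a log2 fold change of -0.22, and against oil -0.55 (edgeR adjusted p = 0.484). These comparisons share the 9527+oil mice, and the first shares the Corexit 9527 mice with the comparison of Corexit 9527 against saline.

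The other treatments gave smaller Mmp12 differences from saline that did not pass adjustment in edgeR. Corexit 9500 mice had 56.9, 13.9 and 27.2 CPM in females, all above the saline females as were 3.56% of genes, and 14.3, 16.1 and 7.73 CPM in males, of which the last lies among the saline males. Over both sexes this came to 1.33 ± 0.36 on the log2 scale (standard error; edgeR adjusted p = 0.972). Oil gave 19.9, 14.8 and 9.53 CPM in male mice, all above the saline males as were 7.42% of genes, against 7.82, 6.01 and 7.17 CPM in female mice. With oil the log2 fold change was 1.02 in males (adjusted p = 0.324 by edgeR and 0.0212 by DESeq2) and -0.41 in females, and the difference between the sexes was 1.38 (edgeR adjusted p = 1.00). The 9500+oil mice ranged from 7.17 to 13.1 CPM in females and from 7.28 to 9.44 CPM in males, overlapping the saline mice of both sexes.

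Ordered by their means, the female groups ran from Corexit 9527 (64.4 ± 22.9 CPM, SD, 3 mice) over Corexit 9500 (32.6 ± 22.0) to 9500+oil (10.1 ± 2.99), saline (8.98 ± 2.09), oil (7.00 ± 0.920) and 9527+oil (6.23 ± 0.240). The Corexit 9527 and Corexit 9500 females overlapped, the Corexit 9500 females lay wholly above the 9500+oil females, and each of the last 4 groups overlapped its neighbour. The male order was Corexit 9527 (37.7 ± 20.4 CPM), oil (14.8 ± 5.19), Corexit 9500 (12.7 ± 4.42), 9500+oil (8.30 ± 1.09), 9527+oil (7.74 ± 1.80) and saline (7.25 ± 0.746). Only the Corexit 9527 males lay wholly above the group next to them in that order. Corexit 9527 against Corexit 9500 over both sexes gave a log2 fold change of 1.27 (95% interval 0.46 to 2.09, adjusted p = 0.800 by edgeR), and 0 of the 10 genes passed in that comparison by edgeR, DESeq2 or voom (1 at an unadjusted p under 0.05, where 3.33% of all genes lay).

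Timp1, the secreted inhibitor of most metalloproteinases (ENSMUSG00000001131, chromosome X, 20870166 to 20874735, within Syn1 on the opposite strand), had a pattern over the treatments like that of Mmp12 but with wider spread. Saline females had 12.9, 31.0 and 21.6 CPM and Corexit 9527 females 104, 24.3 and 27.6 CPM, so that these groups overlapped. Saline males had 8.40, 9.76 and 7.59 CPM and Corexit 9527 males 30.4, 114 and 27.1 CPM, with no overlap. One mouse of each sex, female mouse 10 and male mouse 11, stood far above the others of its group. Over both sexes Timp1 stood 1.98 ± 0.53 higher on the log2 scale (standard error) and was not called by edgeR (adjusted p = 0.609). DESeq2 gave an adjusted p of 0.0267, voom with sample quality weights 0.0191, and edgeR without the 4 libraries 0.0456 (log2 fold change 2.26).

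Against Corexit 9527 alone, Timp1 fell by 2.34 on the log2 scale with 9527+oil (standard error 0.45; edgeR adjusted p = 0.0468). The 9527+oil mice had 8.78, 7.10 and 10.7 CPM in females and 9.87, 16.1 and 13.0 CPM in males, below every Corexit 9527 mouse of their sex. The call was lost in 10 of the 12 fits that left out 1 mouse, with edgeR adjusted p from 0.0666 to 0.179, and remained without female mouse 11 (0.00724) or male mouse 12 (0.0318) of the Corexit 9527 group. Without female mouse 10 the value was -1.87 and without male mouse 11 it was -1.94. With no filter on low counts edgeR gave an adjusted p of 0.0506.

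The sexes differed most in the oil groups for Timp1, though no difference passed adjustment in edgeR's test. Oil, 9500+oil and 9527+oil were each set against the same saline mice, so these differences are not independent. The saline mice had 12.9 to 31.0 CPM in females and 7.59 to 9.76 CPM in males. With oil, males had 28.6, 17.4 and 24.1 CPM, all above the saline males, and females had 7.50, 15.7 and 9.05 CPM against 12.9 to 31.0 CPM with saline. Oil against saline gave 1.44 in males (standard error 0.20; edgeR adjusted p = 0.150) and -1.08 in females on the log2 scale. The difference between the sexes was 2.46 on the log2 scale (95% interval 1.25 to 3.68) and missed adjustment in edgeR (unadjusted p = 0.00104, adjusted p = 1.00, where 1.65% of genes lay under 0.05). DESeq2 gave an adjusted p of 0.0250 and voom 0.0366 for it, where they called 0.0911% and 0.553% of all genes. With 9500+oil females had 11.2, 9.78 and 5.27 CPM, all below the saline females as were 0.737% of genes, and males 11.1, 9.32 and 13.1 CPM, overlapping the saline males. The 9527+oil females likewise lay below the saline females for Timp1 and Mmp12 (7.2% of genes) and above them for Timp2 (10.7%), and the 9527+oil males above the saline males for Timp1 and Mmp9 (5.92%). Corexit 9500 males lay above the saline males for Timp1, Mmp2 and Mmp14 (6.39%).

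The counts of Mmp12 per count of Timp1, which need no scaling between libraries, are given for each sex. In saline mice the ratio was 0.337 to 0.648 in females and 0.753 to 1.05 in males. In Corexit 9527 mice it was 0.793 to 2.99 in females, above all saline females, and 0.535 to 0.981 in males, overlapping the saline males. The female values include 0.337 in saline mouse 3 and 2.99 in Corexit 9527 mouse 11, both of high mitochondrial share, and the other females had 0.648 and 0.365 with saline and 0.793 and 1.40 with Corexit 9527. In 9527+oil mice it was 0.576 to 0.916 in females and 0.538 to 0.652 in males. Neither these ratios nor their difference between the sexes was tested.

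**Figure D2:**
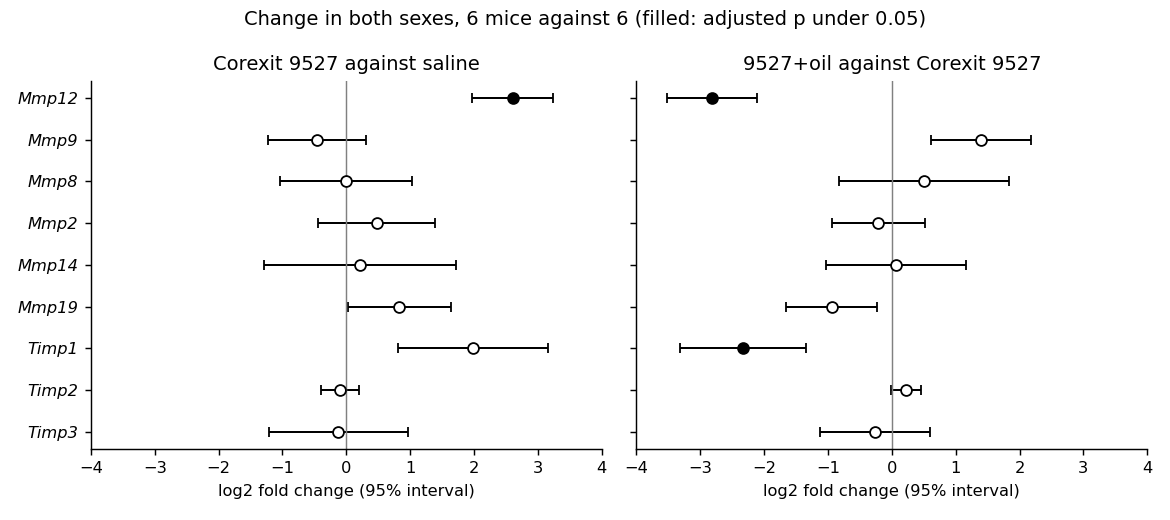
Log2 fold change with its 95% interval for 9 of the 10 genes over both sexes, for Corexit 9527 against saline (left) and 9527+oil against Corexit 9527 (right), 6 mice a group, filled where the adjusted p of edgeR's test was under 0.05. Mmp12 is filled on both sides, at 2.60 and -2.82, and Timp1 on the right, at -2.34.

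Mmp9, gelatinase B (ENSMUSG00000017737, chromosome 2, 164940780 to 164955850), was not called in any comparison by edgeR with its reported settings and all mice of the groups compared, and its values ran opposite to those of Mmp12 between the Corexit 9527 groups. Corexit 9527 mice had 15.7, 6.92 and 7.46 CPM in females and 29.0, 32.4 and 11.6 CPM in males. The 9527+oil mice had 18.2, 23.8 and 19.5 CPM in females and 37.5, 75.6 and 133 CPM in males, above every Corexit 9527 mouse of their sex. No overlap upward over both sexes was seen in 2.78% of genes in this comparison. On the log2 scale Mmp9 stood 1.40 ± 0.36 higher (standard error; edgeR adjusted p = 0.147), and it passed by DESeq2 (0.00919), voom (0.0157), with all 6 groups in one fit (0.0373) and without the 4 libraries (0.0461). Of all genes DESeq2 called 4.13% in this comparison, voom 10.2%, and edgeR without the 4 libraries 6.63%.

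In male mice Mmp9 was also higher with oil. Saline males had 37.3, 34.4 and 32.9 CPM, and oil males had 69.8, 55.3 and 122 CPM, with no overlap. That difference was 1.23 ± 0.25 on the log2 scale (standard error), and the adjusted p was 0.256 by edgeR and 0.000271 by DESeq2. In female mice oil gave 15.8, 16.8 and 11.1 CPM against 14.4, 19.8 and 5.27 CPM with saline, and the groups overlapped. The 9527+oil males also lay above the saline males (log2 fold change 1.23, adjusted p = 0.885 by edgeR). Without 9527+oil male mouse 16, the lowest of its group, edgeR gave an adjusted p of 0.0303. Mmp9 was called in none of the other 5 fits that left out 1 mouse.

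Mmp8, the neutrophil collagenase (ENSMUSG00000005800, chromosome 9, 7558456 to 7568485), spread widely within the male groups that received oil. The 9527+oil males had 5.22, 43.0 and 55.8 CPM, the oil males 7.42, 13.9 and 41.2 CPM and the 9500+oil males 28.7, 7.66 and 10.8 CPM, against 7.76, 11.3 and 12.0 CPM with saline. All 3 groups overlapped the saline males. In males 9527+oil against saline gave 1.74 ± 0.67 for Mmp8 on the log2 scale (standard error; edgeR adjusted p = 0.885). In female mice Mmp8 ranged from 4.40 to 14.6 CPM in the 14 libraries of lower mitochondrial share and from 14.9 to 30.7 CPM in the other 4.

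The male mice high in Mmp8 and Mmp9 were also high in neutrophil markers, which were summed over the 11 of 12 listed genes in the male table (Elane was not listed there). The sum was 414 to 456 CPM in saline males, 773 to 1528 CPM in oil males and 409 to 1523 CPM in 9527+oil males. The 9527+oil male with the least Mmp8 and Mmp9, mouse 16, had the lowest sum of that group, 409 CPM, and oil male mouse 6, with the most of both genes among the oil males, had 1528 CPM. In 9527+oil males 7 of 9 neutrophil markers tested lay above 0 with a median log2 fold change of 1.53 and none of them was called by edgeR (6 higher and 1 lower at an unadjusted p under 0.05, where 5.54% of all genes lay). In Corexit 9527 males the sum was 445 to 689 CPM, while the median log2 fold change was -0.40 over 8 markers. Of these markers Lcn2 was called higher by edgeR (1.31, adjusted p = 0.0468), where 0.114% of all genes were called. The part of neutrophil number in the Mmp8 and Mmp9 values was not tested.

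**Figure D3:**
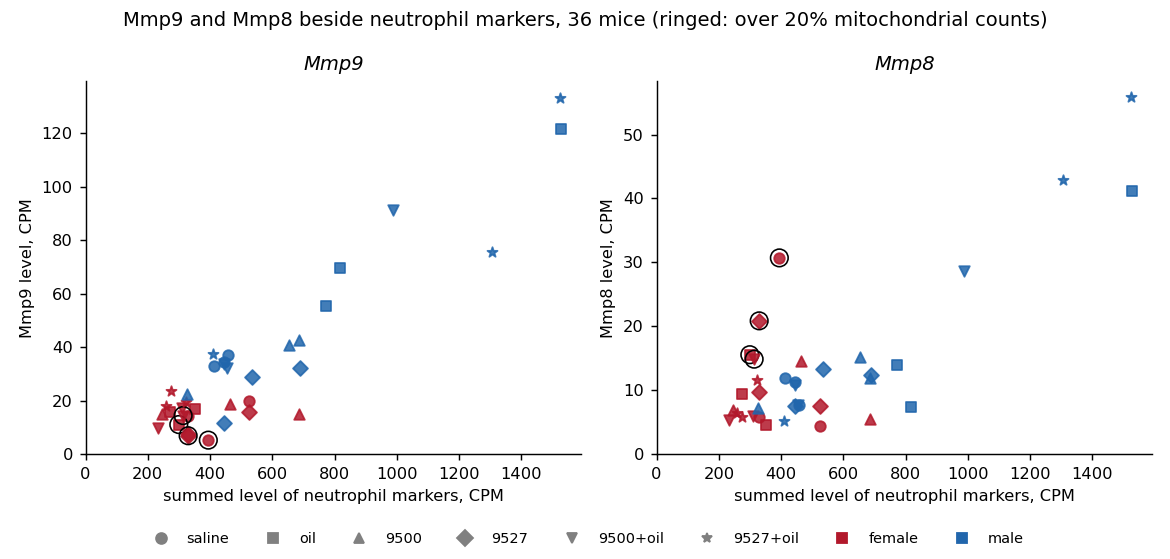
Level of Mmp9 (left) and Mmp8 (right) in CPM against the summed level of neutrophil markers in CPM, 1 point a mouse, with symbols for the 6 treatments, female mice in red, male mice in blue and rings on the 4 libraries with over 20% mitochondrial counts. The 3 males with the highest marker sums have 75.6 to 133 CPM of Mmp9 and 41.2 to 55.8 CPM of Mmp8, and the ringed females have 14.9 to 30.7 CPM of Mmp8 at marker sums of 299.5 to 394 CPM.

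Mmp2 and Mmp14 form an activation pair, since the membrane-bound MMP14 cuts the MMP2 precursor with TIMP2 as a bridge. Mmp2 (gelatinase A, ENSMUSG00000031740, chromosome 8, 92827291 to 92853420) stood at 153, 177 and 194 CPM in saline males and 252, 216 and 348 CPM in Corexit 9527 males. Mmp14 (ENSMUSG00000000957, chromosome 14, 54431612 to 54445364) stood at 84.5, 84.1 and 65.3 CPM in saline males and 115, 120 and 139 CPM in Corexit 9527 males. Neither pair of groups overlapped. On the log2 scale the male differences were 0.64 for Mmp2 (adjusted p = 0.172 by edgeR, 0.0132 by DESeq2) and 0.68 for Mmp14 (adjusted p = 0.0768 by edgeR, 0.000251 by DESeq2). In females both genes spread widely, with Mmp14 at 107, 5.00 and 51.7 CPM in Corexit 9527 mice and 108, 82.3 and 4.69 CPM in saline mice. The values near 5 CPM belong to the libraries of high mitochondrial share.

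Mmp19, a metalloproteinase of the basement membrane (ENSMUSG00000025355, chromosome 10, 128790910 to 128800824, in part under Tmem198b on the opposite strand), leaned the same way as Mmp12 in the Corexit 9527 mice. Males had 31.4, 37.4 and 36.9 CPM with saline and 40.3, 51.4 and 50.3 CPM with Corexit 9527, with no overlap, and females had 15.0, 23.6 and 6.33 CPM against 45.3, 12.9 and 48.2 CPM. Over both sexes Mmp19 gave 0.83 on the log2 scale (adjusted p = 1.00 by edgeR and 0.0402 by voom), and 0.77 without the 4 libraries (edgeR adjusted p = 0.0519). Against Corexit 9527, 9527+oil gave -0.94 (edgeR adjusted p = 0.272), and -1.10 without the 4 libraries (edgeR adjusted p = 0.0245).

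Within male mice, 5 of the 9 genes tested (Mmp12, Mmp2, Mmp14, Mmp19 and Timp1) lay above the saline mice in every Corexit 9527 mouse, where 10.7% of all genes did. A further 2 (Mmp9 and Timp2) lay below in every mouse, where 9.48% of all genes did. None of the 9 was called by edgeR, in a comparison where 0.114% of genes were called, 5 had an unadjusted p under 0.05 (13.7% of all genes), and DESeq2 called 4 (of 3.98% of all genes it called) and voom 1 (of 0.744%). Within female mice Mmp12 alone of the 10 showed no overlap (2.85% of all genes did so upward). None of the 10 was called there by edgeR or voom, DESeq2 called Mmp12 (of 0.04% of all genes it called), and 1 had an unadjusted p under 0.05 (0.267% of all genes).

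Timp2 and Timp3 were the most abundant of the 10 genes per length. In saline males the levels per kilobase of the longest coding transcript were 276 ± 41.4 CPM for Timp3, 185 ± 12.1 for Timp2, 56.8 ± 6.64 for Mmp2, 24.1 ± 3.39 for Mmp14, 11.0 ± 0.708 for Mmp9, 10.3 ± 0.975 for Mmp19, 9.72 ± 1.24 for Timp1, 4.27 ± 0.936 for Mmp8 and 2.01 ± 0.207 for Mmp12 (SD, 3 mice). Mmp12 was thus the lowest of these 9 genes per length in saline males. The SD ranges of Mmp9, Mmp19 and Timp1 overlapped.

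Timp2 (ENSMUSG00000017466, chromosome 11, 118301069 to 118355740, in part under Cep295nl on the same strand) stayed between 481 and 764 CPM over all 36 mice. Male mice had 642, 731 and 687 CPM with saline and 600, 581 and 620 CPM with Corexit 9527, without overlap, and the log2 fold change was -0.19. Over both sexes it was -0.09 with Corexit 9527 against saline and 0.23 with 9527+oil against Corexit 9527, where each 9527+oil mouse lay above each Corexit 9527 mouse of its sex. Timp3, the matrix-bound inhibitor that also blocks ADAM proteases (ENSMUSG00000020044, chromosome 10, 86300372 to 86349506, within Syn3 on the opposite strand), had 1097, 1332 and 1485 CPM in saline males and 927.5, 1013 and 1342 CPM in Corexit 9527 males, which overlapped. In females Timp3 followed the 4 libraries, with 1096, 1190 and 5481 CPM in saline mice, of which the last is mouse 3.

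**Figure D4:**
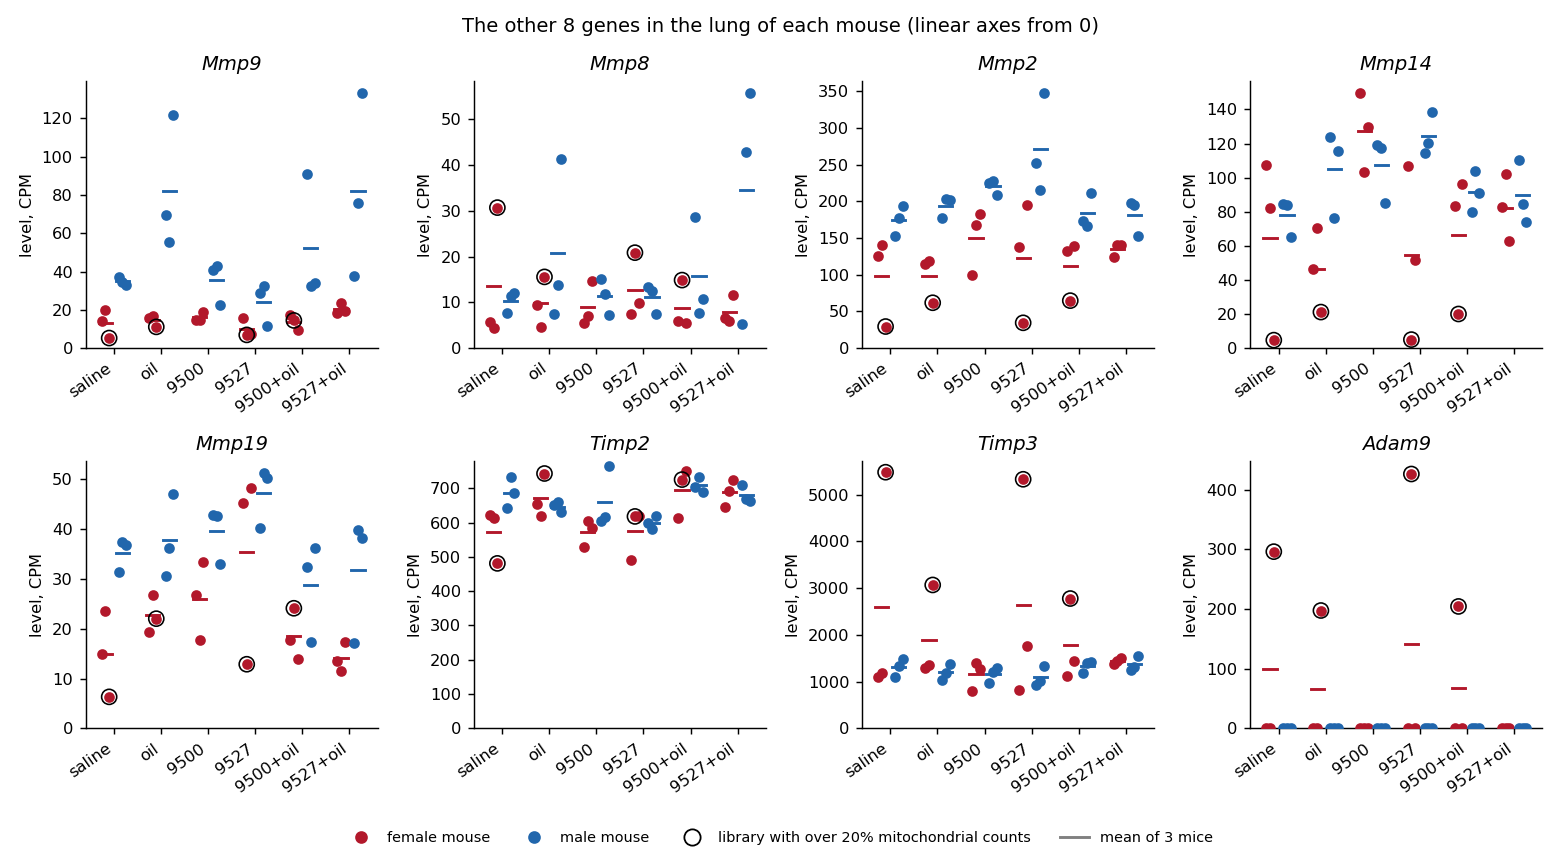
Level in CPM (linear axes from 0) of the 8 genes other than Mmp12 and Timp1 in each of the 36 mice, by treatment, with female mice in red, male mice in blue, bars at the mean of 3 mice and rings on the 4 libraries with over 20% mitochondrial counts. The ringed mice are the 4 highest of the 36 for Timp3 and Adam9 and the 4 lowest for Mmp2 and Mmp14.

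Adam9, a membrane-anchored protease that sheds cell surface proteins (ENSMUSG00000031555, chromosome 8, 24949611 to 25016927), was read almost only in the 4 libraries of high mitochondrial share. These held 2525 (saline mouse 3), 3360 (oil mouse 6), 4002 (Corexit 9527 mouse 11) and 3090 counts (9500+oil mouse 14). The other 14 female libraries held 0 to 21 counts and the 18 male libraries 0 to 15 counts. Of the 18116 rows of the female table, 3 separated the 4 libraries from the other 14 upward by over 20-fold as Adam9 did (lowest against highest CPM, with 0.5 CPM added to both), and 3 did so downward. With 1 such library in each of 4 female groups and none in Corexit 9500 or 9527+oil, the Adam9 values of a group follow from that library, and no treatment difference is given for it.

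The same 4 libraries differed from the other pair of mice of their group in most of the genes. Mmp14 stood at 0.0494 to 0.361 times the mean of that pair and Mmp2 at 0.208 to 0.528 times. Timp3 stood at 2.16 to 4.79 times and Mmp8 at 2.21 to 6.02 times. Mmp12 (0.739 to 1.54 times) and Timp2 (0.779 to 1.17) held values on both sides of 1. Timp1 (0.370 to 1.19), Mmp9 (0.308 to 1.07) and Mmp19 (0.275 to 1.52) also did, but fell far below 1 in single libraries. The lowest values were those of Timp1 and Mmp19 in Corexit 9527 mouse 11 and of Mmp9 in saline mouse 3, where Mmp19 stood at 0.328. The transcripts of Mmp12 and Mmp8 have a GC content of 40.1% and 43.4%, those of Timp3 and Adam9 46.8% and 46.6%, those of Mmp14 and Mmp2 54.3% and 55.3%, and those of Mmp19, Timp1, Timp2 and Mmp9 49.0%, 52.8%, 53.7% and 55.2%, beside a median of 50.3% over 15746 genes. The part of GC content, or of RNA quality, in these differences was not tested.

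**Figure D5:**
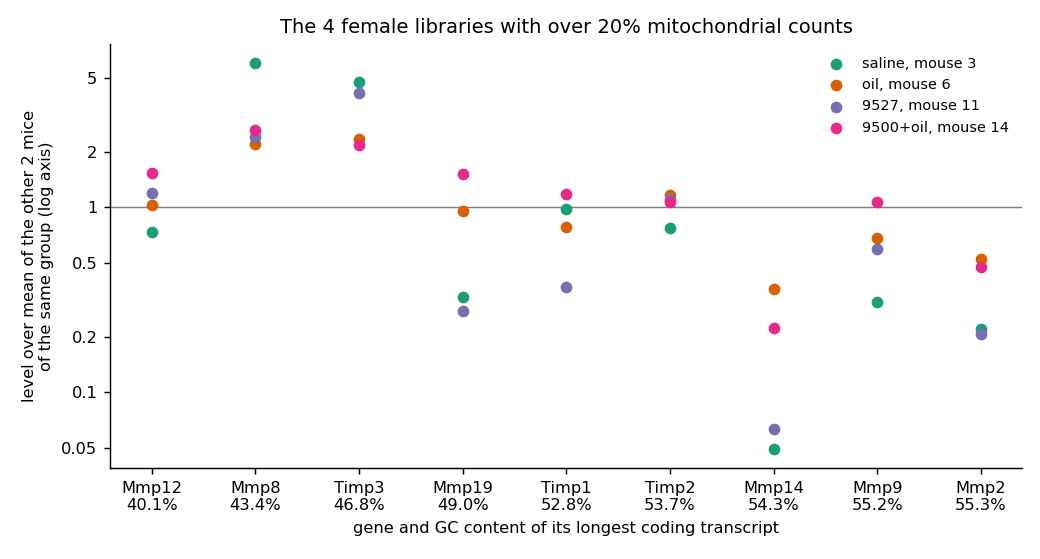
Level of 9 genes in each of the 4 female libraries with over 20% mitochondrial counts, as a ratio to the mean of the other 2 mice of the same group (log axis), with the genes ordered by the GC content of their longest coding transcript. Mmp8 and Timp3 lie above 1 and Mmp14 and Mmp2 below 1 in all 4 libraries, while Mmp12 and Timp2 stay between 0.739 and 1.54.

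The other proteases and inhibitors measured did not pass edgeR's test with Corexit 9527, and their results by DESeq2 or voom are not given here. Against saline over both sexes, 0 of 10 other matrix metalloproteinases, 0 of 8 other ADAM proteases, 0 of 16 ADAMTS proteases and 0 of 10 other protease inhibitors were called by edgeR. At an unadjusted p under 0.05 there was 1 gene of these 4 lists, Adam12 (log2 fold change 0.77, edgeR adjusted p = 1.00), where 2.86% of all genes lay under 0.05. The medians of the lists were 0.08, 0.20, 0.03 and 0.18 on the log2 scale, beside 0.01 over all genes tested. Genes with the smallest p in their list were Mmp28 (-0.43), Mmp27 (0.88) and Mmp3 (0.22) of the metalloproteinases, Adam19 (0.19) and Adam17 (0.22) after Adam12 of the ADAM proteases, Adamts5 (-0.44), Adamts12 (0.83) and Adamts3 (0.75) of the ADAMTS proteases, and Tfpi2 (1.29) and Reck (-0.30) of the inhibitors.

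Among activators and binding partners of metalloproteinases, Spp1 and Lcn2 were upregulated by Corexit 9527 in male mice. Spp1, osteopontin, is a matrix protein that metalloproteinases cut, and Lcn2, lipocalin 2, binds MMP9. Spp1 rose from 22.2 ± 2.19 to 67.4 ± 12.9 CPM (SD, 3 males a group; log2 fold change 1.61, adjusted p = 0.0147 by edgeR) and Lcn2 from 138 ± 12.1 to 342 ± 84.3 CPM (log2 fold change 1.31, edgeR adjusted p = 0.0468). These were 2 of the 9 listed genes tested there, where 0.114% of all genes were called. Over both sexes 0 of 9 were called by edgeR (3 higher at an unadjusted p under 0.05, beside 2.86% of all genes in either direction, with Spp1 at 1.18, Lcn2 at 0.74 and Cd44 at 0.40), and the list's median was 0.13. Spp1 fell by 1.37 with 9527+oil against Corexit 9527 (edgeR adjusted p = 0.0269), where 0.559% of all genes were called.

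Of the matrix proteins that metalloproteinases cut, fibronectin (Fn1) was upregulated in Corexit 9527 males, from 927 ± 13.5 to 1535 ± 111 CPM (log2 fold change 0.73, adjusted p = 0.0468 by edgeR). It was the 1 of 20 listed genes called there (0.114% of all genes were), beside 10 at an unadjusted p under 0.05, all higher (13.7% of all genes lay under 0.05 in either direction), and a list median of 0.35. Tenascin C (Tnc), a matrix protein of injured tissue, had 18.3 to 27.5 CPM in saline and 81.6 to 128 CPM in Corexit 9527 females, and 35.9 to 41.0 and 85.4 to 442 CPM in males. Over both sexes the log2 fold change of Tnc was 2.28 (standard error 0.36), and with an adjusted p of 0.108 it was not called by edgeR, as was 0 of the 20 genes. Against Corexit 9527, Tnc fell by 2.45 with 9527+oil (edgeR adjusted p = 0.0267), the 1 of 20 called, where 0.559% of all genes were called. The list's median was 0.27 with Corexit 9527 against saline, where Fn1 gave 0.71 (edgeR adjusted p = 0.389).

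Markers of macrophages, the known source of Mmp12, summed to higher levels with Corexit 9527, though no single one was called over both sexes. Their level summed over 19 of 19 listed genes ran from 1085 to 1288 CPM in saline females and 1683 to 2767 CPM in Corexit 9527 females, and from 1025 to 1189 CPM in saline males and 1384 to 2203 CPM in Corexit 9527 males, with no overlap in either sex. In 9527+oil mice it was 779 to 822 CPM in females and 946 to 1330 CPM in males. A rise was not particular to Corexit 9527, since oil males had 1518 to 1748 CPM, also above every saline male. Oil females had 914 to 1057 CPM, below every saline female. None of the 19 was under 0.05 CPM throughout a group. Over both sexes 16 of 18 lay above 0 with a median log2 fold change of 0.47, and 0 were called by edgeR (5 higher and 1 lower at an unadjusted p under 0.05, where 2.86% of all genes lay), led by Ctsk (1.24), Chil3 (1.33) and Msr1 (1.01). In male mice Cd68, a lysosomal protein of macrophages, was upregulated (0.83, edgeR adjusted p = 0.0468), where 0.114% of all genes were called. The part of macrophage number in the Mmp12 values was not tested.

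Of the other marker lists, 0 genes were called by edgeR with Corexit 9527 over both sexes. The median log2 fold change was -0.09 over 6 monocyte, -0.21 over 10 fibroblast, -0.12 over 8 lymphocyte, -0.24 over 12 lung epithelial, -0.30 over 7 endothelial and -0.43 over 8 neutrophil markers. Proliferation markers were all 7 above 0 with a median of 1.42, each at an unadjusted p under 0.05 (2.86% of all genes), and all 7 fell with 9527+oil against Corexit 9527 (median -1.60, called by edgeR as were 0.559% of all genes), where Mmp12 and Timp1 fell too. Their sum was 194 to 277 CPM in Corexit 9527 females against 65.6 to 146 CPM with saline, and 124 to 283 against 50.5 to 80.6 CPM in males. Oil males (92.9 to 154 CPM), Corexit 9500 males (87.8 to 162 CPM) and 9500+oil males (85.8 to 95.2 CPM) lay above the saline males too. The females of these groups overlapped the saline females.

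Across the 36 mice, after centring log2 CPM within each sex, the genes whose levels ran most like those of Mmp12 among 15913 genes were Chil3 (Pearson r = 0.905), Sprr2a2 (0.901), Slc26a4 (0.899), Serpina3n (0.872) and Ctsk (0.862). Timp1 had an r of 0.84 with Mmp12, and 0.896 over the 32 mice without the 4 libraries, where it ranked 4 among all genes. The gene most like Timp1 was Serpina3n (0.920 over 36 and 0.939 over 32 mice). For Mmp9 it was Csf3r (0.867), the receptor that neutrophils carry for G-CSF, for Mmp8 Clec4e (0.857), for Mmp2 Col6a1 (0.937), for Mmp14 Csrp1 (0.975), for Mmp19 Edem1 (0.828), for Timp2 Itsn1 (0.808), for Timp3 Rora (0.957) and for Adam9 Fam20b (0.922). Without the 4 libraries the nearest gene changed for Mmp12 (Slc26a4, 0.935), Mmp9, Mmp8, Mmp2, Mmp14, Mmp19, Timp2, Timp3 and Adam9, whose highest r was then 0.577. These r describe mice that share treatments and library properties.

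In the other comparisons 0 of the 10 genes (9 where Adam9 was not tested) passed in edgeR. The counts at an unadjusted p under 0.05 that follow are over the 9 genes other than Adam9. Over both sexes, oil, Corexit 9500, 9500+oil and 9527+oil against saline had 0, 2, 0 and 1 of them at an unadjusted p under 0.05 (0.442, 2.3, 0.418 and 2.99% of all genes), and 0 by DESeq2 or voom. In female mice the same comparisons had 0, 1, 1 and 1 (0.108, 0.364, 0.155 and 1.1%), and 0 by DESeq2 or voom. In male mice they had 4, 4, 0 and 3 (8.21, 6.35, 9.22 and 5.54%), and DESeq2 called 3 with oil (Mmp12, Mmp9 and Timp1, where it called 1.31% of all genes) and 1 with Corexit 9500 (Timp1, where it called 0.324%), voom 0. The shares of all genes called by edgeR in male mice were 0.00671% with oil, 0.00662% with Corexit 9500 and 0.00669% with 9527+oil.

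The treated groups were also set against each other. Corexit 9527 against oil had 3 of the genes at an unadjusted p under 0.05 (3.07% of all genes, with 0.00652% called), with Mmp12 at 2.27, Timp1 at 1.78 and Mmp9 at -1.15 on the log2 scale, and DESeq2 called Mmp12 and Timp1 (of 0.573% of all genes it called). Mmp12 lay above (0.495% of genes) and Timp2 below (0.3%) the oil mice in every Corexit 9527 mouse of both sexes. The 9500+oil mice against the Corexit 9500 mice had 3 (1.95%), with Mmp12 at -1.15, Timp1 at -1.53 and Mmp19 at -0.47. Corexit 9500, 9527+oil and 9500+oil against oil had 1, 2 and 1 (2.81, 9.07 and 1.06%), and 9527+oil against 9500+oil had 0 (1.81%). In 9527+oil against Corexit 9527 the number was 4 (14.1%). Tests of the difference between the sexes had 2 for oil (Mmp12 and Timp1, where 1.65% of all genes lay), 0 for Corexit 9500 and Corexit 9527 and 1, Timp1, for each of 9500+oil and 9527+oil (0.726, 0.352, 0.509 and 2.39%). All of these tests share the saline mice.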

How the data were processed

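Poly(A) RNA of left lungs was sequenced from TruSeq Stranded mRNA libraries. Per the labels and the study's methods, the authors quantified transcripts with Salmon on GRCm38, imported them with tximport and deposited estimated counts per gene symbol (expected counts, not normalized) in 1 table for female and 1 for male mice. The Salmon version and strand setting are not given in the sources used here. There were 18120 rows for female and 18295 for male mice, and 4 rows in each that shared a name were left out (0.0103% and 0.0128% of counts). Depth is given as total counts, and each group held 3 mice per sex.

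The deposited estimated counts were already whole numbers, with a lowest row sum of 10, and were tested across all genes that passed filterByExpr with edgeR 4.0.16 (TMM, quasi-likelihood F-test, R 4.3.3). Both tables were joined on the 17716 shared names with a sex term, or fitted within a sex, and p-values were adjusted by Benjamini-Hochberg over all genes tested (threshold 0.05). Standard errors are the size of the log2 fold change over the square root of F. CPM values use TMM library sizes within each table, so levels are compared within a sex. Alternatives were DESeq2 1.42.0, limma 3.58.1 (voom with quality weights), the size factors of DESeq2, no filter, a minimum of 10 counts per mouse, a joint fit of the 6 groups, a model lacking sex, omission of the 4 libraries, and omission of each mouse. The scripts were tested on simulated data. All 36 mice had a group and a file.

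The 10 genes, the other lists and the tests were chosen with earlier results of these data known. Genes of a list could be named where they had an adjusted p under 0.05 in a comparison described or were among the 3 with the smallest p for Corexit 9527 against saline; not all of these are printed, and 2 are not reported here. By likeness, 5 genes were named for Mmp12 and 1 for each other gene. Positions are from GENCODE M21 and promoters from RefSeq (GRCm38.p6).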

Additional observations from a re-analysis of the deposited data

Results flagged for a closer look

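Timp1 was marked for a closer look because its response to 9527+oil against saline differed between the sexes. The male minus female difference was 1.90 on the log2 scale (standard error 0.47, 95% interval 0.86 to 2.94). In edgeR's interaction test the unadjusted p was 0.00213 and the adjusted p was 0.948, so the difference did not pass adjustment over all genes. In female mice the log2 fold change was -1.31, with all 3 9527+oil mice below the saline mice, and in male mice it was 0.59, with all 3 above. Female and male mice were treated separately, so that sex and the separate treatment cannot be told apart.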

How the results depend on the processing

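Without the 4 libraries 55 of the 222 log2 fold changes of the 10 genes in comparisons that include female mice changed sign, none of them called in either fit, with 15 for Timp3, 11 for Mmp8, 1 for Mmp12 and 0 for Timp1. The number of the 10 genes called for Corexit 9527 against saline over both sexes was 1, against 2 with DESeq2, 3 with voom and 2 without the 4 libraries, and 0 to 1 with a mouse left out. For 9527+oil against Corexit 9527 it was 2, against 1 with no filter, 4 with voom, 4 without the 4 libraries and 0 to 4 with a mouse left out. In male mice Corexit 9527 had 0, against 4 with DESeq2, 1 with no filter, 1 with at least 10 counts in every mouse, 3 with all groups in one fit, 1 with voom and 0 to 2 with a mouse left out. Male oil had 0, against 3 with DESeq2 and 0 to 1 with a mouse left out. Male Corexit 9500 and female Corexit 9527 had 0, against 1 each with DESeq2. Male 9527+oil had 0, and 0 to 2 with a mouse left out. The sex difference for oil had 0, against 1 with DESeq2 and 1 with voom. Corexit 9527 against oil had 0, against 2 with DESeq2 and 1 with all groups in one fit. The cause of these changes was not tested. The other counts of the 10 genes called stayed within 1.5 times the reported one. Counts over all genes moved more. Corexit 9527 against saline over both sexes called 5, against 127 with DESeq2, 796 with voom, 331 without the 4 libraries, 113 with all groups in one fit, 2 with no filter, 2 with the size factors of DESeq2 and 3 with no sex term. For 9527+oil against Corexit 9527 it was 86, against 636, 1570, 1039 and 163 in the first 4 of these. In Corexit 9527 males it was 17, against 594 with DESeq2, 111 with voom, 299 with all groups in one fit, 89 with at least 10 counts in every mouse and 70 with no filter. In comparisons where edgeR called 0 or 1 gene, DESeq2 called up to 195 (male oil). No paired analysis was possible because the treatment groups share no mouse numbers within a sex. With 3 mice a group, a call could be lost by leaving out 1 mouse, and female groups with 1 library of high mitochondrial share had wide spread for Mmp2, Mmp14 and Timp3. The sources used here do not say whether reads of Timp1 and Syn1, or of Timp3 and Syn3, were separated by strand.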
